A study of Mus musculus with 12 samples.

Results

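The arrays described here come from a mouse embryonic stem (ES) cell line with a doxycycline-inducible transgene for the transcription factor neurogenin 1 (Neurog1). They are the 3 arrays of cells that had expressed Neurog1 for 48 h and the 3 arrays of the uninduced cells in maintenance culture, so 6 of the 12 arrays of the series, and they were chosen by their titles. The other 6 arrays hold cells induced for 24 h (3 arrays) and 72 h (3 arrays). All 4 groups are ES cells of strain 129P2/OlaHsd (E14, Ainv15), and the labels number 3 biological replicates in each. Every group grew in the same serum medium with LIF, puromycin and G418, so LIF, the cytokine that maintains mouse ES cells, was still supplied at 48 h. Induced cells received doxycycline at 1 ug/ml. The uninduced arrays are labelled as 0 h, and no uninduced culture kept for 48 h was compared here, so the effects of doxycycline, the transgene and culture time cannot be told apart. The sources used here do not say whether the line is a single clone. Nothing in the labels says that the replicates came from separately derived lines, so the p-values measure the spread between these cultures.

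Neurog1 is a proneural basic helix-loop-helix (bHLH) factor. In the embryo it starts neurogenesis in cranial sensory placodes, dorsal root ganglia and parts of the neural tube. Proneural factors pair with E proteins, bind E-boxes (CANNTG) and switch on a cascade of further bHLH, zinc-finger and LIM-homeodomain factors. They also raise Notch ligands, which signal to neighbouring cells, where Hes and Hey repressors hold neurogenesis back. ES cells are kept pluripotent by Pou5f1, Sox2, Nanog and partner factors downstream of LIF, STAT3 and other signals. Leaving that state towards a neural fate normally means loss of those factors, gain of neural progenitor factors, and later exit from the cell cycle as neurons form.

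Each array measured total RNA with Affymetrix probe sets. Values are MAS5 signals on a linear scale, and differences are log2(signal + 16) at 48 h minus uninduced, with the standard error (SE) from limma and n = 3 arrays per group. Adding 16 damps noise in dim probe sets and understates the change of dim genes. A gene was represented by its brightest probe set, and a signal compares the same gene between arrays, never 1 gene with another. A gene rose or fell below where its Benjamini-Hochberg adjusted p in limma was under 0.05 over the 11317 genes tested. The 2% trimmed mean of the 6 arrays had been scaled to the same value, and their median signals ran from 19.5 to 28.5. Correlations over the tested genes were 0.968 to 0.982 within a group and 0.772 to 0.827 between the groups. In bulk RNA, fewer cells of a type and less RNA per cell cannot be told apart, and this holds for every result below. Counts over a gene list are of the members that passed the filter on dim signals, with the number on the array in brackets where it is larger. A gene near the bottom of the scale in uninduced cells could pass only by being brighter at 48 h, so these counts do not describe the untested members. With 3 arrays a group, their number limits the precision.

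Neurog1 signals were 11.4, 18.7 and 4.53 in uninduced cells and 1089, 1152 and 889 at 48 h. All 3 induced arrays were far above all 3 uninduced arrays, a rise of 5.29 ± 0.22 (adjusted p = 6.79e-08). The sources used here do not say which of the transgene and endogenous transcripts the probe set reads. Uninduced arrays carried the ES cell markers that their label calls for, with Pou5f1 at 5768, 4936 and 6063, Nanog at 3227, 4042 and 3804 and Zfp42 at 6749, 6174 and 6642. At 48 h Pou5f1 was at 190.0, 438 and 171, Nanog at 90.6, 309 and 243 and Zfp42 at 359, 727 and 607, all below every uninduced array, although their label still calls the cells ESC.

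Most genes that could be tested were called at 48 h in the main fit, but not under every alternative. With all 12 arrays 4237 were called, and 5459 without induced replicate 2. Of 11317 genes 6411 were called (56.6%), with 3639 higher (32.2%) and 2772 lower (24.5%). Called genes with a log2 difference of 1 or more, a doubling of signal + 16, numbered 2126 higher (18.8%) and 1055 lower (9.32%). The strong end was lopsided, since 209 genes rose by 3 or more against 65 that fell by as much, and 26 rose by 5 or more against 3. The arrays of both groups did not overlap for 7224 genes (63.8%), and 6263 of the 6411 called genes were among them. The median difference over all tested genes was 0.11 and the median SE was 0.20. The split into higher and lower depends on the scaling between arrays. Quantile normalization gave 3031 higher and 3151 lower with a median of -0.04, and median centring gave 2705 higher and 3835 lower with a median of -0.15, so small differences are best read against those medians. Of the tested genes 9223 passed the filter in both groups, 716 through the uninduced arrays alone and 1378 through the 48 h arrays alone.

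**Figure D1:**
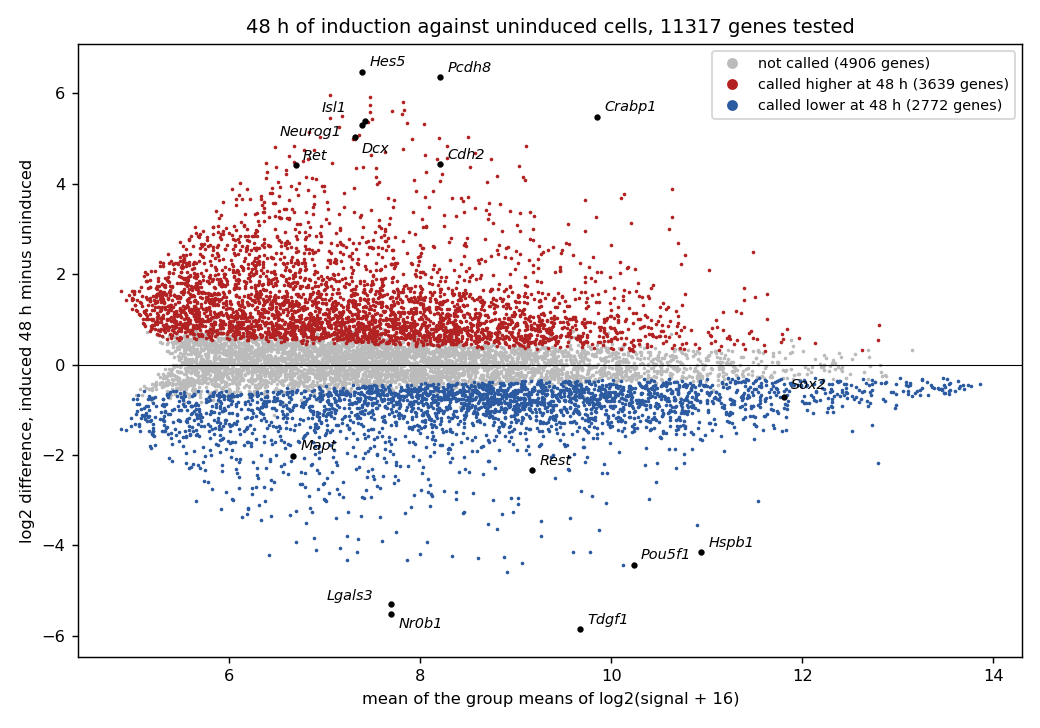
Log2 difference (48 h minus uninduced, y axis) against the mean log2(signal + 16) of the 6 arrays (x axis) for the 11317 genes tested, with called genes coloured by direction. On this scale the largest rise, Hes5, is at 6.47 and the largest fall, Tdgf1, at -5.85, and rises of 3 or more (209 genes) outnumber such falls (65).

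Among the largest rises was that of Hes5, a bHLH repressor that is a standard target of Notch signalling in neural progenitors. Hes5 signals were 2.00, 1.36 and 2.25 in uninduced cells and 1861, 1478 and 1398 at 48 h. The 3 uninduced arrays were at the bottom of the scale and the 3 induced arrays lay close together, a rise of 6.47 ± 0.18 (adjusted p = 1.02e-08). Pcdh8, a protocadherin, was at 7.21, 10.4 and 40.9 in uninduced cells and 2649, 2498 and 2835 at 48 h, a rise of 6.35 ± 0.29. Ebf2, a helix-loop-helix factor of early neurons, was at 0.842, 0.831 and 0.941 in uninduced cells and 1087, 1385 and 739.6 at 48 h and rose by 5.96 ± 0.23. Rgs4, a regulator of G protein signalling, was at 1.28, 8.43 and 12.9 in uninduced cells and 1442, 1271 and 1381 at 48 h and rose by 5.90 ± 0.21. In none of these genes did an uninduced array reach 41, and no induced array was below 739.6. The order of such genes, whose uninduced signals are near the bottom of the scale, depends on the 16 that was added. With 1 added, Ebf2 rose by 9.12, adjusted p = 2.49e-07, and Hes5 by 9.11, adjusted p = 9.48e-08. With 64 added, Pcdh8 rose by 5.05, adjusted p = 1.48e-08, and Hes5 by 4.63, adjusted p = 1.34e-08. Among the next in size were Ppp1r17 (5.73 ± 0.23), Pkdcc, a secreted protein kinase (5.62 ± 0.25), Npr2, a receptor for C-type natriuretic peptide (5.57 ± 0.24), and the HMG-box gene Tox3 (5.53 ± 0.30). Spsb4, an adaptor of a ubiquitin ligase, went from 19.6, 29.8 and 28.3 to 1618, 1750.2 and 1574, and Greb1l from 32.3, 55.2 and 57.3 to 1968, 2004 and 2175. No array of one group reached the other in either gene, with rises of 5.32 ± 0.17 and 5.03 ± 0.19. Rassf4 (5.08 ± 0.27), Cracd, a regulator of actin capping (5.04 ± 0.27), and Mfap4, a microfibril-associated glycoprotein (4.84 ± 0.20), were also among the 30 largest rises. For Cracd 4 of 5 probe sets had the sign of the one used.

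Among the 30 largest falls, ES cell regulators stood beside enzymes and structural genes. Tdgf1, the Nodal co-receptor Cripto, was at 6219, 5560.3 and 6768 in uninduced cells and 66.7, 241 and 42.3 at 48 h, and fell by 5.85 ± 0.42 on the log2 scale. Nr0b1, a nuclear receptor of the pluripotency network, was at 1465, 1227 and 1481 in uninduced cells and 12.1, 24.7 and 9.44 at 48 h (-5.51 ± 0.21). Lgals3, which encodes galectin 3, was at 1678, 1068 and 1175 in uninduced cells and 17.8, 20.7 and 13.3 at 48 h (-5.29 ± 0.21). The groups did not overlap for any of the 3 genes, and the 48 h arrays of Nr0b1 and Lgals3 were at or near the bottom of the scale. Falls outside the pluripotency factors included Mylpf, a fast muscle myosin light chain (-4.23 ± 0.16), the pyrimidine catabolic enzyme gene Dpys (-4.10 ± 0.21), the elongation factor gene Tcea3 (-4.05 ± 0.22), the kinase gene Sgk1 (-4.14 ± 0.33), S100a6 (-3.91 ± 0.38), Calcoco2, an autophagy receptor (-3.86 ± 0.31), Triml1 (-3.84 ± 0.33) and Lrrc2 (-3.79 ± 0.20). Mylpf signals were 1322, 1223 and 1634 in uninduced cells and 54.4, 61.0 and 60.6 at 48 h, with all 3 induced arrays close together. Platr10, a noncoding RNA gene, fell by 4.22 ± 0.22.

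**Figure D2:**
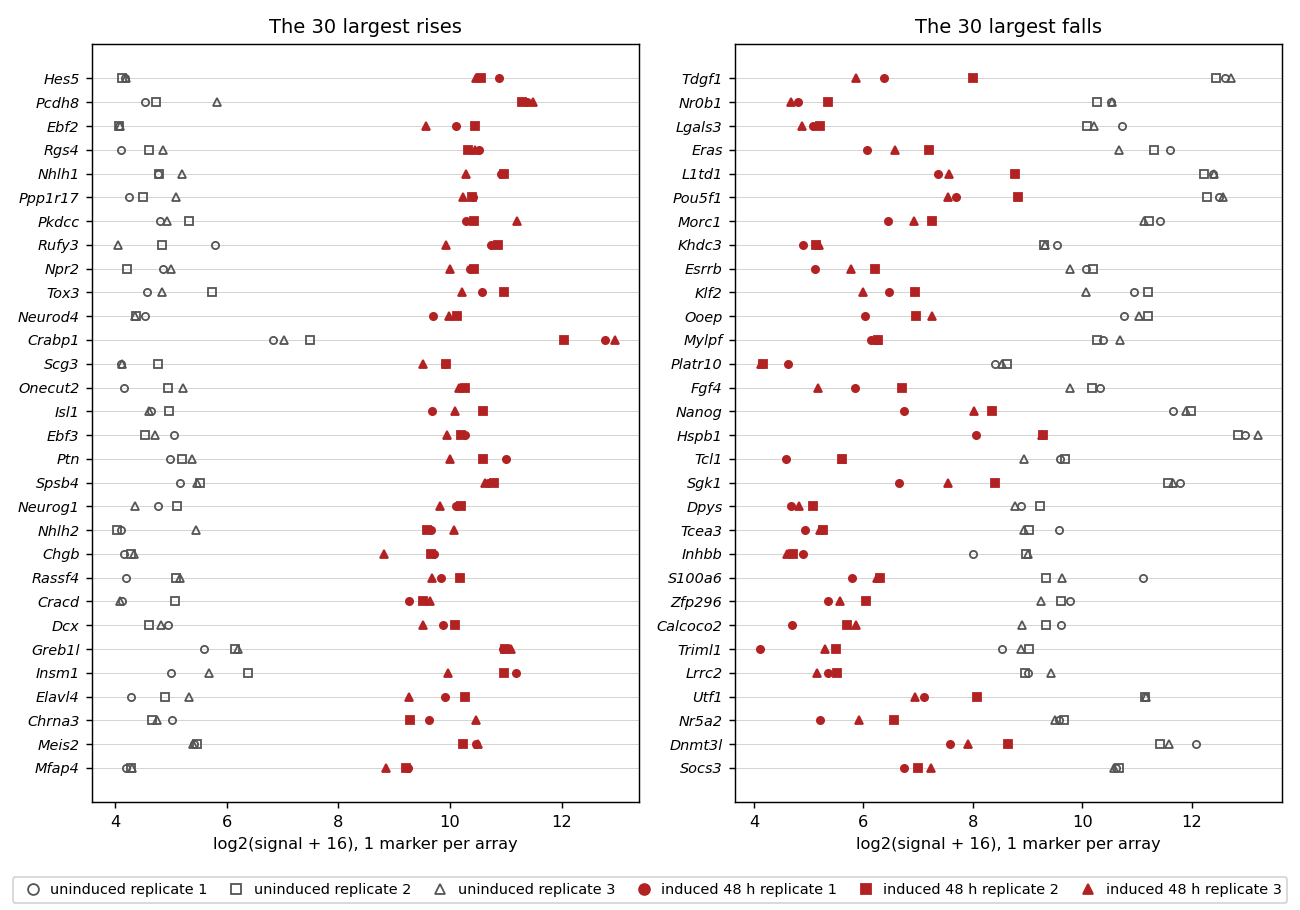
Log2(signal + 16) on each of the 6 arrays (x axis) for the 30 genes with the largest rises and the 30 with the largest falls (y axis), uninduced and 48 h arrays in different colours. In each of the 60 genes the 3 uninduced and the 3 induced arrays do not overlap, since that was a condition for being shown.

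The promoters of 5 strongly raised genes are shown because proneural and Notch factors bind the motifs marked in them. Each covers 250 bases before to 50 bases after the start in RefSeq's table for GRCm38.p6, read 5′ to 3′ on the gene's strand. E-boxes (CANNTG) are in capitals, and in Hes5 also the letters GTGGGAA or TTCCCAC, which match a Notch effector motif (RBPJ). Both strands were searched. The E-box is its own reverse complement, and it includes the narrower E-boxes CAGATG, which is read as CATCTG on the opposite strand, and CAGCTG. Hes5 lies at chr4:154960673-154960972 on the plus strand. Rgs4 lies at chr1:169747593-169747892, Nhlh1 at chr1:172057547-172057846, Neurod4 at chr10:130280089-130280388 and Dll1 at chr17:15375774-15376073, all on the minus strand. For Neurod4 and Dll1 the table lists 2 starts and the one listed at the top is shown.
Hes5: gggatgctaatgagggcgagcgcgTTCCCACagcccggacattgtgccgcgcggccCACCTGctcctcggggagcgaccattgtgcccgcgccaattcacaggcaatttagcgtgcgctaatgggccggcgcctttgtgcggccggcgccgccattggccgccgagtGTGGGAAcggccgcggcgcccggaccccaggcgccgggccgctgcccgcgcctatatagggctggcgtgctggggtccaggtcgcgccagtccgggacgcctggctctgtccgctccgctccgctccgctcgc
Rgs4: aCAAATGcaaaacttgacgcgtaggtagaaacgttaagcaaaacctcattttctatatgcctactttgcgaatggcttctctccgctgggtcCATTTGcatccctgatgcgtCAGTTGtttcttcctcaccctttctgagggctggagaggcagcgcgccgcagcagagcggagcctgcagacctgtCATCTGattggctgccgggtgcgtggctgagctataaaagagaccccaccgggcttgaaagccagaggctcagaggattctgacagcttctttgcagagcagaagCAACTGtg
Nhlh1: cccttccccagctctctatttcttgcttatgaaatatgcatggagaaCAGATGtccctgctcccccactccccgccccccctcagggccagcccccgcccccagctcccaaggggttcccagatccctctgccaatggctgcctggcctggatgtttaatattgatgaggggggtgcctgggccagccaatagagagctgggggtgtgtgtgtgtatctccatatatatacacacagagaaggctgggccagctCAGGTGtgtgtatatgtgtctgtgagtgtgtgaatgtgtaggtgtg
Neurod4: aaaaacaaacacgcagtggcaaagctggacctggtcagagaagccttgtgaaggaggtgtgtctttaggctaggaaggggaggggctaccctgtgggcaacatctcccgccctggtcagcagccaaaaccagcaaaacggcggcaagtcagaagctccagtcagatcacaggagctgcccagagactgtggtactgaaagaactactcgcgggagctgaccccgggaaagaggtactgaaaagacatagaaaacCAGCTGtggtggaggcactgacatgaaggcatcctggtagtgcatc
Dll1: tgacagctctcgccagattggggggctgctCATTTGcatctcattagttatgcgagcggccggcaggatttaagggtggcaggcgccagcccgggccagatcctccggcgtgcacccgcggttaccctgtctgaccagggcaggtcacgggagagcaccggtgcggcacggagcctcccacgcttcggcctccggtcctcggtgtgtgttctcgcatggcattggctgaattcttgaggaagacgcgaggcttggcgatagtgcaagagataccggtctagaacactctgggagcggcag
The Hes5 window held 1 E-box and 2 matches to GTGGGAA or TTCCCAC. Rgs4 held 5 E-boxes, of which 1 reads CATCTG 63 bases before the start, and Nhlh1 held 2, of which 1 reads CAGATG 203 bases before it. Neurod4 and Dll1 held 1 each, with CAGCTG in Neurod4, and the Pcdh8 window held none. At the other listed start, which is not shown, Neurod4 held none and Dll1 held 3, of which 1 reads CAGCTG. Such letters are common. Over the 27025 genes in the table, at the start listed at the top, CANNTG stood in 72.15% of windows, CAGATG or CATCTG in 17.22%, CAGCTG in 16.11% and GTGGGAA or TTCCCAC in 6.39%. CANNTG stood in 61.97% of the 9186 tested genes with a listed promoter, in 61.33% of the 1655 that rose by 1 or more, in 60.78% of the 153 that rose by 3 or more and in 64.99% of the 834 that fell by 1 or more. CAGCTG stood in 14.47% of tested promoters, 18.19% of those that rose by 1 or more, 20.91% of those that rose by 3 or more and 15.35% of those that fell by 1 or more. For CAGATG or CATCTG the shares were 10.95%, 12.27%, 16.34% and 11.63% in the same order. GTGGGAA or TTCCCAC stood in 5.976%, 6.163%, 3.922% and 6.235%. These shares are descriptions, and no test of them was made.

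Proneural bHLH genes were high at 48 h. Of 10 tested bHLH factors (17 on the array) 9 rose and the other one was not called, with a median of 3.18. Nhlh1, a bHLH gene of newly born neurons, was at 11.2, 11.6 and 20.8 in uninduced cells and 1899.9, 1989 and 1226 at 48 h. Its relative Nhlh2 was at 1.24, 0.407 and 27.8 in uninduced cells and 795, 753 and 1063 at 48 h. Neurod4, a direct relay of neurogenins, was at 7.28, 4.84 and 4.53 in uninduced cells and 808, 1106 and 992 at 48 h. In all 3 genes the induced arrays were above 750 and no uninduced array exceeded 28, with rises of 5.80 ± 0.22, 5.24 ± 0.34 and 5.50 ± 0.19. Neurod1, a differentiation factor shared by neurons and endocrine cells, had a signal before induction, with 75.2, 389 and 356 in uninduced cells and 2497, 3303 and 3179 at 48 h (3.64 ± 0.45). Uninduced replicate 1 was the low array there, and the groups did not overlap. Hes6, which opposes Hes1, rose by 2.65 ± 0.23, Olig3 by 3.43 ± 0.22, Bhlhe23 by 1.52 ± 0.30 and Neurod2 by 1.17 ± 0.30. Neurog3, the endocrine neurogenin, was at 37.3, 21.1 and 38.1 in uninduced cells and 36.0, 21.7 and 23.4 at 48 h, and its groups overlapped (-0.16 ± 0.25, adjusted p = 0.620). Neurog2 did not pass the filter on dim signals.

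Transcription factors of young neurons rose beside them. In the list of Ebf, Onecut, LIM and POU4 factors 14 of 17 (28 on the array) rose and the others were not called (median 3.45). Ebf3, a relative of Ebf2, was at 17.3, 7.195 and 10.4 in uninduced cells and 1214, 1155 and 971 at 48 h. Onecut2 was at 1.91, 14.9 and 21.0 in uninduced cells and 1158, 1220.2 and 1132 at 48 h. The LIM-homeodomain gene Isl1, which marks sensory and motor neurons, was at 8.84, 15.3 and 8.27 in uninduced cells and 803, 1523 and 1067 at 48 h. None of these had an uninduced array above 21, and the lowest induced array was 803, with rises of 5.36 ± 0.20, 5.44 ± 0.25 and 5.38 ± 0.24. Sox11 (4.07 ± 0.24) and Sox4 (3.89 ± 0.31), SoxC factors that activate neuronal genes, Ebf1 (3.45 ± 0.34) and Onecut1 (1.93 ± 0.24) rose too. Zinc-finger factors followed, with 12 of 16 (22 on the array) higher and 2 lower. Insm1, a zinc-finger gene of neuroendocrine and neuronal precursors, was at 15.96, 66.9 and 35.5 in uninduced cells and 2306, 1977 and 976 at 48 h, with the lowest induced array still far above the highest uninduced one (5.01 ± 0.37). Zbtb18 rose by 3.54 ± 0.19, Myt1 by 2.30 ± 0.33 and St18 by 2.44 ± 0.35. Rest, the repressor that keeps neuronal genes off in other cells, was at 1234, 1273 and 1346 in uninduced cells and 189.8, 231 and 316 at 48 h and fell (-2.34 ± 0.18, adjusted p = 3.01e-06).

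Notch signalling genes rose on the ligand side, and Hes5 stood alone in size on the effector side. Of 19 tested ligands, receptors and fringes (20 on the array) 15 rose and 1 fell (median 1.57). Dll1, the ligand that proneural factors activate, was at 54.2, 85.8 and 98.2 in uninduced cells and 669.8, 605 and 1048 at 48 h, a rise of 3.04 ± 0.25. Dll3, which acts inside the cell and dampens Notch signalling, was at 119, 89.0 and 90.5 in uninduced cells and 2672, 3059.6 and 1669 at 48 h (4.39 ± 0.22). Dll4 was at 3.63, 2.30 and 5.32 in uninduced cells and 216, 215 and 273 at 48 h (3.66 ± 0.21). All 3 ligands had non-overlapping groups, with induced replicate 3 the highest induced array for Dll1 and Dll4 and the lowest for Dll3. Jag1 rose by 2.68 ± 0.23, the fringe gene Mfng by 2.95 ± 0.21, Dner by 2.99 ± 0.27 and the receptor gene Notch1 by 1.59 ± 0.18. Notch4 fell (-1.03 ± 0.27), a call lost when its probe sets were averaged (-0.22, adjusted p = 0.293). Among 7 Hes, Hey and partner genes (10 on the array) 6 rose, with smaller sizes than Hes5 in Hey1 (1.86 ± 0.20), Heyl (1.27 ± 0.28), the coactivator gene Maml1 (1.10 ± 0.20), Hey2 (0.99 ± 0.23) and Hes1 (0.71 ± 0.24). Hes1 signals were 77.7, 166 and 149 in uninduced cells and 218, 214 and 215 at 48 h, with the 3 induced arrays nearly equal, and its call was lost with quantile normalization (0.44, adjusted p = 0.137). Leaving out 1 array gave Hes1 differences of 0.42 to 0.89 with adjusted p from 0.0154 to 0.0766, and the call held only without uninduced replicate 2 or 3. Rbpj, the DNA-binding partner of Notch, was at 1307, 1313 and 1252 in uninduced cells and 999, 1209 and 1134 at 48 h and was not called (-0.21 ± 0.13, adjusted p = 0.176).

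Partners and inhibitors of bHLH factors rose together. All 7 tested members of the Id and E-protein list were called higher (median 1.81), but Id1 and Id3 not under every alternative. The E-protein genes Tcf12 (2.52 ± 0.17), Tcf4 (2.12 ± 0.18) and Tcf3 (0.97 ± 0.19) encode dimer partners of Neurog1. Id proteins bind E proteins without contacting DNA. Id4 signals were 32.1, 93.4 and 48.0 in uninduced cells and 1521, 1709.7 and 807 at 48 h, a rise of 4.22 ± 0.33, and Id2 rose by 1.81 ± 0.29. Id1 was at 779, 403 and 891 in uninduced cells and 1466, 1038 and 2384 at 48 h, a rise of 1.21 ± 0.32 that was not called with all 12 arrays (1.21, adjusted p = 0.0873). Id3 was at 374, 224 and 272 in uninduced cells and 712, 303 and 1666 at 48 h, with overlapping groups and a rise of 1.29 ± 0.46 (adjusted p = 0.0340). Both were highest on induced replicate 3, and leaving out 1 array gave Id3 differences of 0.68 to 1.88 with adjusted p from 0.000912 to 0.106, called only without uninduced replicate 1 or induced replicate 2.

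Most genes of the neuronal cytoskeleton rose, but tau and others fell. In the list of tubulins, microtubule and growth cone proteins 29 of 34 (36 on the array) rose and 2 fell (median 2.43). Dcx, doublecortin of migrating neurons, was at 15.0, 8.27 and 12.4 in uninduced cells and 928, 1073 and 720.1 at 48 h. Map2, a dendritic microtubule protein, was at 39.6, 44.3 and 29.0 in uninduced cells and 1262, 1359 and 1288 at 48 h. Tubb3, the neuronal tubulin, was at 504, 335 and 332 in uninduced cells and 3781, 3586 and 3101 at 48 h. The groups were far apart in all 3, with rises of 5.04 ± 0.20, 4.63 ± 0.17 and 3.13 ± 0.17. Rufy3, a protein of neuronal polarity, rose by 5.61 ± 0.39, with 5 of its 6 probe sets of that sign. Dpysl2, also called CRMP2, rose by 3.76 ± 0.23, Map1b by 3.69 ± 0.18 and Dclk1 by 3.58 ± 0.21. Mapt, which encodes the axonal protein tau, went the other way, with 165, 173 and 235 in uninduced cells and 41.2, 51.5 and 17.3 at 48 h (-2.02 ± 0.28, adjusted p = 0.000138). All of its further probe sets had the same sign. Map7 fell as well (-1.18 ± 0.22). Stmn2, which encodes the growth cone protein stathmin 2 and is a usual marker of neurons, was bright before induction, at 3222, 3649 and 3264 in uninduced cells and 4150.0, 3954 and 2528 at 48 h. Its groups overlapped and this probe set was not called (0.04 ± 0.18, adjusted p = 0.874). A second, dimmer probe set of this gene, which was chosen for description after its values were seen, differed by 0.96. With its probe sets averaged, Stmn2 was called higher. Of the 7 intermediate filament genes (8 on the array) 5 rose and 1 fell. Nefm was at 11.6, 38.5 and 1.65 in uninduced cells and 472, 702 and 216 at 48 h. Nefl was at 243, 231 and 199.8 in uninduced cells and 1307, 1541 and 694 at 48 h. Ina was at 593, 463 and 196 in uninduced cells and 2521, 2474 and 1339 at 48 h. In each of these neurofilament genes induced replicate 3 was the lowest induced array and still above all uninduced arrays, with rises of 3.86 ± 0.45, 2.24 ± 0.25 and 2.37 ± 0.36. Vim rose by 1.01 ± 0.11, whereas Nefh, the heavy neurofilament of mature axons, was at 226, 286 and 271 in uninduced cells and 129, 164 and 96.3 at 48 h and fell (-0.94 ± 0.21). Nestin (Nes) was at 22.2, 32.0 and 36.1 in uninduced cells and 49.6, 58.4 and 33.2 at 48 h and was not called (0.44 ± 0.24, adjusted p = 0.146).

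RNA-binding regulators of neuronal splicing rose in 19 of 24 (26 on the array) and fell in 2 (median 1.76). Elavl4, of the Hu family that stabilises neuronal messages, was at 3.38, 13.6 and 24.2 in uninduced cells and 941, 1219 and 599 at 48 h. Its relative Elavl3 was at 35.2, 40.8 and 58.9 in uninduced cells and 751, 829.5 and 618 at 48 h. Srrm4, which drives neuronal microexon splicing, was at 1.01, 1.02 and 23.7 in uninduced cells and 417, 412 and 369 at 48 h. No groups overlapped, and the rises were 4.98 ± 0.31, 3.63 ± 0.20 and 4.20 ± 0.31. Msi1 (3.34 ± 0.26), Celf2 (2.85 ± 0.32), Rbfox3, the antigen known as NeuN (2.53 ± 0.29), Elavl2 (2.42 ± 0.20) and Nova1 (2.19 ± 0.20) rose. Ptbp1, which represses neuronal exons in other cells, was at 4606, 3989 and 3296 in uninduced cells and 2744, 2215 and 1972 at 48 h and fell (-0.77 ± 0.16, adjusted p = 0.00201).

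Synaptic and secretory genes were already raised at 48 h. Synaptic vesicle and release genes rose in 22 of 27 (37 on the array) and fell in 1 (median 1.73). The SNARE gene Snap25 was at 5.79, 10.9 and 1.67 in uninduced cells and 504, 577 and 349 at 48 h. Syp (synaptophysin) was at 25.7, 15.5 and 32.0 in uninduced cells and 488, 498 and 298 at 48 h. Syt1, the calcium sensor of release, was at 15.3, 26.3 and 26.3 in uninduced cells and 129, 177 and 109 at 48 h. These groups did not overlap, with rises of 4.47 ± 0.25, 3.45 ± 0.25 and 1.99 ± 0.24. The active zone gene Pclo (3.58 ± 0.23), Cadps (2.96 ± 0.28), Syt13 (3.88 ± 0.26) and Stx1a (2.53 ± 0.20) rose, and Syngr1 fell (-1.79 ± 0.20). On the postsynaptic side 14 of 18 (27 on the array) rose and the others were not called. Among the rises were Cadm3 (2.96 ± 0.34), Cadm1 (2.59 ± 0.17), Dlg4, the scaffold PSD-95 (1.86 ± 0.27), Homer1 (1.36 ± 0.17) and Homer2 (1.88 ± 0.33). Granins and neuropeptides rose in 11 of 18 (31 on the array) and fell in 2. Scg3, which sorts granins into secretory granules, was at 1.16, 11.3 and 1.44 in uninduced cells and 946, 958 and 712 at 48 h (5.45 ± 0.23). Chgb was at 1.85, 3.58 and 4.22 in uninduced cells and 825, 796 and 437 at 48 h (5.14 ± 0.25). The neuropeptide galanin (Gal) was at 36.3, 17.5 and 17.2 in uninduced cells and 961, 754 and 1347 at 48 h. Somatostatin (Sst), another neuropeptide, was at 3.24, 3.02 and 3.57 in uninduced cells and 314, 246 and 549.9 at 48 h. Both peptides were highest on induced replicate 3, and their groups were far apart (4.70 ± 0.25 and 4.25 ± 0.28). The processing enzyme gene Cpe rose by 4.15 ± 0.28. Trh, thyrotropin-releasing hormone, was at 826, 963 and 531 in uninduced cells and 66.8, 108 and 87.2 at 48 h and fell (-2.91 ± 0.24). Chga was at 121, 104 and 92.6 in uninduced cells and 166, 164 and 103 at 48 h without being called (0.37 ± 0.22, adjusted p = 0.168).

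Genes of transmitter synthesis went both ways, and receptors were led by nicotinic subunits. Of 7 tested genes of transmitter synthesis and vesicular transport (21 on the array) 3 rose and 3 fell. Slc18a2, the vesicular monoamine transporter, was at 10.4, 10.4 and 0.689 in uninduced cells and 321, 241 and 433 at 48 h, a rise of 3.90 ± 0.27 with no overlap. Tph1 of serotonin synthesis (0.92 ± 0.24) rose from dim signals. Ddc, the aromatic amino acid decarboxylase, was at 532, 679 and 719.6 in uninduced cells and 61.0, 91.1 and 158 at 48 h and fell (-2.54 ± 0.27), and the aspartate aminotransferase gene Got1 (-1.93 ± 0.15) fell. Slc6a2 was not called (-0.32 ± 0.25). Receptor subunits rose in 11 of 15 (42 on the array), and the others were not called. Chrna3, the ganglionic nicotinic subunit, was at 16.4, 9.17 and 10.7 in uninduced cells and 770.2, 605 and 1392 at 48 h. Chrna5, which joins it in receptors of autonomic and sensory ganglia, was at 22.5, 8.26 and 18.3 in uninduced cells and 274, 226 and 495 at 48 h. Chrnb4, a further partner, was at 16.03, 24.1 and 18.7 in uninduced cells and 162, 187 and 177 at 48 h. Induced replicate 3 was highest for Chrna3 and Chrna5 and the middle one for Chrnb4, with rises of 4.98 ± 0.28, 3.38 ± 0.30 and 2.43 ± 0.20. The glycine receptor genes Glra1 (2.44 ± 0.25) and Glrb (1.84 ± 0.25) and the nicotinic gene Chrnb2 (2.54 ± 0.33) rose too.

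Voltage-gated channels rose in 11 of 21 (43 on the array) and fell in 2 (median 0.80). Cacna2d1, an auxiliary calcium channel subunit, was at 3.86, 28.4 and 8.60 in uninduced cells and 496, 591 and 361 at 48 h (4.13 ± 0.30). The N-type calcium channel gene Cacna1b (2.78 ± 0.26), the sodium channel genes Scn9a (2.68 ± 0.37), Scn8a (2.46 ± 0.26) and Scn3a (1.46 ± 0.30) and the potassium channel gene Kcnd3 (1.73 ± 0.23) rose. Scn9a, known from sensory neurons, was at 7.64, 14.02 and 22.8 in uninduced cells and 209, 293 and 87.4 at 48 h, lowest among induced arrays on replicate 3. The leak channel gene Kcnk5 fell (-0.88 ± 0.19).

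Of 45 axon guidance genes (57 on the array) 28 rose and 4 fell (median 1.36). The netrin receptor gene Dcc was at 6.27, 6.80 and 4.29 in uninduced cells and 499, 511 and 276 at 48 h (4.30 ± 0.25), and 1 of its further probe sets had the opposite sign. Sema6d, a transmembrane semaphorin, was at 6.33, 11.004 and 15.4 in uninduced cells and 386, 442 and 552 at 48 h (4.14 ± 0.22). The semaphorin receptor gene Nrp1 was at 13.4, 17.4 and 2.54 in uninduced cells and 243, 162 and 272 at 48 h (3.17 ± 0.28). No array of either group crossed into the other. Efnb2 (3.07 ± 0.25), Slit1 (2.89 ± 0.26), Neo1 (2.69 ± 0.14), Robo1 (2.32 ± 0.15) and Epha4 (1.44 ± 0.25) rose. The receptor gene Epha2, which is high in ES cells, was at 245, 391 and 422 in uninduced cells and 86.9, 98.1 and 96.8 at 48 h and fell (-1.71 ± 0.22), as did Sema4a (-1.44 ± 0.21) and Sema4d (-1.10 ± 0.24). Neural adhesion molecules rose in 17 of 19 (36 on the array), and the others were not called. They were led by Lrrn1 (4.62 ± 0.24), Cntn1 (3.40 ± 0.33), Nrcam (3.21 ± 0.32) and Astn1 (2.81 ± 0.28). Ncam1 was at 75.9, 145 and 88.3 in uninduced cells and 573, 609.9 and 462 at 48 h (2.28 ± 0.22). L1cam was at 36.4, 44.4 and 51.0 in uninduced cells and 101, 151 and 75.1 at 48 h, a rise of 1.03 ± 0.25.

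**Figure D3:**
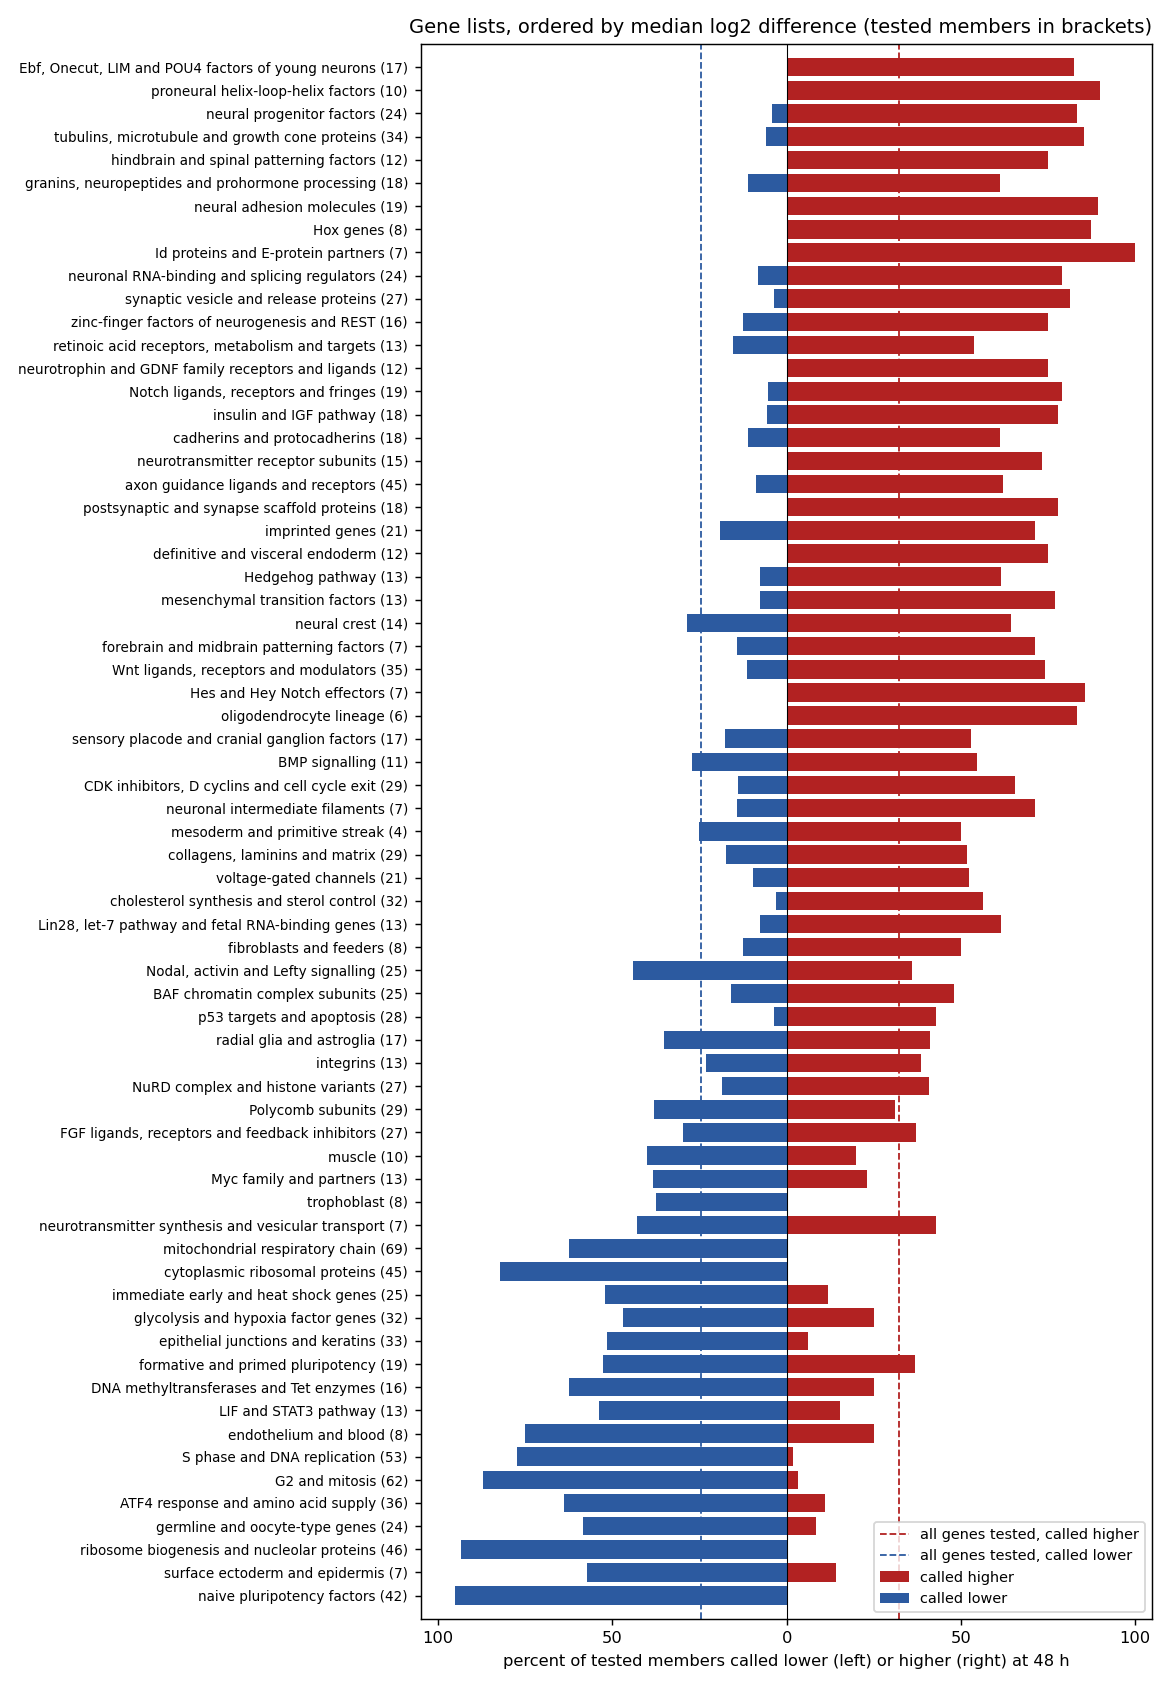
Percent of tested members called higher (red, right) and lower (blue, left) at 48 h (x axis) in each of the 67 gene lists (y axis), with dashed lines at the share over all 11317 genes tested, 32.2% higher and 24.5% lower. Most neuronal lists lie beyond the line for higher genes, transmitter synthesis being equally split (3 higher and 3 lower of 7). So do other lists, such as endoderm (75%), insulin and IGF (77.8%) and Wnt (74.3%). Naive pluripotency, ribosome biogenesis, S phase and mitosis lists lie far beyond the line for lower genes. Members near the bottom of the scale in uninduced cells were tested only where brighter at 48 h. A share beyond the line for higher genes is therefore no test of a list.

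E-cadherin fell and N-cadherin rose. Of 18 cadherin and protocadherin genes (29 on the array) 11 rose and 2 fell. Cdh2 (N-cadherin) was at 37.2, 87.8 and 30.8 in uninduced cells and 1467, 1343 and 1259.9 at 48 h, a rise of 4.43 ± 0.26. Cdh1 (E-cadherin) was at 2491, 2189 and 1849 in uninduced cells and 209, 374 and 331 at 48 h, and fell by 2.80 ± 0.21. On every array of the 48 h group Cdh2 was above its own uninduced values and Cdh1 below its own. Cdh11 (2.82 ± 0.25), Pcdh17 (3.09 ± 0.30), Celsr3 (2.61 ± 0.37) and Celsr2 (2.27 ± 0.28) rose. Epithelial junction and keratin genes fell in 17 of 33 (38 on the array) and rose in 2 (median -0.69). Epcam, an adhesion molecule of epithelia and ES cells, was at 1642, 1315 and 1181 in uninduced cells and 165, 136 and 187 at 48 h (-2.96 ± 0.17). The epithelial splicing factor gene Esrp1 was at 419.9, 228 and 63.2 in uninduced cells and 18.5, 13.5 and 5.45 at 48 h (-2.86 ± 0.50). Ap1m2 (-3.20 ± 0.26) and Cldn4 (-1.72 ± 0.40) fell, while Dsp (1.39 ± 0.38) and Dsc2 (1.54 ± 0.41) of desmosomes rose, Dsp not without the arrays numbered 3 of both groups (0.63, adjusted p = 0.0644). Krt8 was at 182, 535 and 93.1 in uninduced cells and 203, 344 and 211 at 48 h and was not called (0.20 ± 0.47, adjusted p = 0.741). Of 13 factors of mesenchymal transition (18 on the array) 10 rose and 1 fell. Zeb2, which also acts in neural induction, was at 10.6, 13.2 and 1.41 in uninduced cells and 295, 202 and 329.7 at 48 h (3.59 ± 0.27). Zeb1 was at 163, 157 and 108 in uninduced cells and 1089, 1101 and 997 at 48 h (2.78 ± 0.17). Both repress Cdh1 in other systems. Snai2 rose by 1.66 ± 0.43, a call lost without the arrays numbered 3 of both groups (1.23, adjusted p = 0.0541). The YAP target gene Ccn2 fell (-1.09 ± 0.28).

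Receptors of trophic factors rose, above all those of the GDNF family. In the neurotrophin and GDNF family list 9 of 12 (16 on the array) rose and the others were not called (median 1.61). Ret, the signalling receptor of the GDNF family, was at 0.826, 21.0 and 2.24 in uninduced cells and 317, 615 and 504 at 48 h, a rise of 4.41 ± 0.33. Its co-receptor gene Gfra1 was at 13.9, 29.9 and 34.5 in uninduced cells and 514, 608 and 682 at 48 h. Gfra2 was at 0.697, 8.84 and 19.6 in uninduced cells and 226, 246 and 230.5 at 48 h. None of these 3 genes had overlapping groups, and the rises of the co-receptors were 3.90 ± 0.23 and 3.35 ± 0.27. Gfra3, the co-receptor of sensory and sympathetic neurons, was at 23.4, 32.0 and 7.47 in uninduced cells and 251, 239.7 and 871 at 48 h, highest on induced replicate 3 (3.47 ± 0.44). The neurotrophin receptor gene Ntrk3 rose by 1.96 ± 0.36. The p75 gene Ngfr was at 155, 106 and 83.1 in uninduced cells and 198, 159 and 77.5 at 48 h without being called (0.25 ± 0.31, adjusted p = 0.516). Sort1 (1.69 ± 0.18), Sorcs1 (1.54 ± 0.29) and Sorcs2 (1.09 ± 0.23) rose, and Gfra4 was not called (0.34 ± 0.30). Factors of placodes and cranial ganglia rose in 9 of 17 (27 on the array) and fell in 3 (median 1.07). These counts are 52.94% and 17.65%, against 32.2% and 24.5% over all tested genes. Eya1, a placode gene, was at 39.0, 60.4 and 31.9 in uninduced cells and 304, 318 and 433 at 48 h (2.63 ± 0.23), and Eya2 rose by 1.71 ± 0.26. Irx3 (4.64 ± 0.25), Irx5 (3.33 ± 0.26), Irx2 (2.37 ± 0.33) and Pax3 (4.46 ± 0.24) rose. Six4 was not called (-0.17 ± 0.32, adjusted p = 0.671), and Tbx3 (-1.77 ± 0.33) and Foxd3 (-2.51 ± 0.23), which ES cells also use, fell.

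Neural progenitor factors rose in 20 of 24 (30 on the array) and fell in 1 (median 2.53). Pax6, a progenitor factor of the dorsal and lateral neural tube, was at 31.2, 63.5 and 75.5 in uninduced cells and 612, 411 and 637 at 48 h (3.00 ± 0.27). Sox1, among the earliest neural markers, was at 5.73, 24.1 and 51.1 in uninduced cells and 279.7, 238 and 265 at 48 h (2.83 ± 0.34). Its relative Sox3 was at 45.0, 66.6 and 40.7 in uninduced cells and 1530.1, 1074 and 469 at 48 h (3.83 ± 0.35). All 3 have roles in keeping neural progenitors. Zic1, a dorsal neural factor, was at 2.76, 7.33 and 12.4 in uninduced cells and 266, 206 and 514 at 48 h (3.79 ± 0.31). The nuclear receptor gene Nr2f1 was at 0.713, 8.49 and 3.32 in uninduced cells and 436, 379.7 and 221 at 48 h (4.13 ± 0.27). None of these groups overlapped, and induced replicate 3 was the lowest induced array for Sox3 and Nr2f1 and the highest for Zic1. Ptn, the growth factor pleiotrophin, rose by 5.35 ± 0.25. Sox2, shared by ES cells and neural progenitors, was at 4906, 4745 and 4102 in uninduced cells and 2684, 2874 and 2817 at 48 h, and fell by 0.71 ± 0.12. Patterning genes of hindbrain and spinal cord rose in 9 of 12 (31 on the array), the others not being called (median 2.42). Those of forebrain and midbrain rose in 5 of 7 (27 on the array) and fell in 1. Meis2 was at 26.7, 28.3 and 25.8 in uninduced cells and 1395, 1192 and 1433 at 48 h (4.98 ± 0.16), Meis1 rose by 3.54 ± 0.27, Meis3 by 2.23 ± 0.36 and Pbx3 by 1.86 ± 0.24. The forebrain and eye-field gene Lhx2 was at 0.643, 1.58 and 0.675 in uninduced cells and 317, 286 and 140.3 at 48 h (3.88 ± 0.29), En2 rose by 1.13 ± 0.29, and Six3 was not called (0.02 ± 0.23). Gbx2 was at 243, 666 and 576 in uninduced cells and 645, 579 and 231 at 48 h, with overlapping groups (-0.04 ± 0.41).

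In the radial glia and astroglia list 7 of 17 (24 on the array) rose and 6 fell (41.2% and 35.3% against 32.2% and 24.5% over all tested genes), with a median of 0.19 that turned to -0.15 with quantile normalization and -0.07 with median centring. Slc1a2, a glutamate transporter, was at 1.96, 9.20 and 10.8 in uninduced cells and 544, 624 and 621 at 48 h (4.73 ± 0.21), and Nfia (2.00 ± 0.25) and Ptprz1 (1.84 ± 0.21) rose. Apoe (-1.74 ± 0.18), Hopx (-1.78 ± 0.24), Ndrg2 (-1.82 ± 0.22) and Nfib (-1.21 ± 0.31) fell. The astrocyte marker Gfap was at 7.31, 9.39 and 20.1 in uninduced cells and 3.07, 15.2 and 6.13 at 48 h and was not tested. In the oligodendrocyte list 5 of 6 (13 on the array) rose and the other one was not called, or 3 when probe sets were averaged. Mbp was at 29.0, 34.2 and 5.11 in uninduced cells and 169, 204 and 96.9 at 48 h (2.20 ± 0.35), and Nkx2-2 rose by 1.10 ± 0.27. Sox10, which defines the lineage, was at 51.9, 22.7 and 18.1 in uninduced cells and 34.2, 20.0 and 12.1 at 48 h, and Mog stayed at or below 6.95 on all 6 arrays. Neither was bright enough to be tested.

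Naive pluripotency genes fell almost throughout. Of 42 tested factors 40 fell and the other two were not called (median -2.62). In the genes named above, the log2 differences were -4.43 ± 0.28 for Pou5f1 (Oct4), -4.15 ± 0.33 for Nanog and -3.55 ± 0.21 for Zfp42 (Rex1). The nuclear receptor gene Esrrb was at 1055, 1161 and 862 in uninduced cells and 18.8, 58.3 and 38.7 at 48 h, and Klf2 at 1963, 2351 and 1062 in uninduced cells and 72.8, 107 and 47.5 at 48 h. The groups were far apart in both. Esrrb (-4.31 ± 0.26), Klf2 (-4.28 ± 0.30), Nr5a2 (-3.69 ± 0.29), Tcl1 (-4.14 ± 0.30), Zfp296 (-3.89 ± 0.22), Utf1 (-3.79 ± 0.25), the Ras gene Eras (-4.58 ± 0.29) and L1td1 (-4.44 ± 0.29) fell. The remaining signal was not equal between the induced cultures. Of the 40 called members 27 were highest on induced replicate 2, 8 on replicate 3 and 5 on replicate 1. The median level of the list, as log2(signal + 16), was 10.69, 10.67 and 10.51 on the uninduced arrays and 7.34, 7.93 and 7.56 on the 48 h arrays, whereas the median of all tested genes stayed between 7.49 and 7.82 on these 6 arrays.

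Formative and primed genes went both ways, with 7 of 19 (21 on the array) higher and 10 lower. These counts are 36.84% and 52.63%, against 32.2% and 24.5% over all tested genes. Pou3f1 (Oct6), which is raised both in formative cells and in neural tissue, was at 174, 276 and 107 in uninduced cells and 1512, 1953 and 1053 at 48 h (2.96 ± 0.30). Nodal, a ligand of the TGF beta family, was at 872, 1059 and 1329 in uninduced cells and 77.7, 139.8 and 84.7 at 48 h (-3.26 ± 0.23). The de novo methyltransferase gene Dnmt3b was at 2841, 1931 and 1224 in uninduced cells and 766, 903 and 599 at 48 h (-1.32 ± 0.26). No groups overlapped in these genes. Sfrp2 (2.58 ± 0.26), Tead2 (1.87 ± 0.23), Fgf15 (1.85 ± 0.30) and Lef1 (1.31 ± 0.27) rose, and Grhl2 (-2.38 ± 0.26) and Lefty2 (-1.69 ± 0.44) fell. Fgf5, the usual marker of primed cells, was at 11.01, 13.9 and 2.14 in uninduced cells and 18.1, 29.8 and 1.32 at 48 h and was not tested. Otx2 was at 660.2, 205 and 179 in uninduced cells and 154, 177 and 48.2 at 48 h, with uninduced replicate 1 high and induced replicate 3 low. Its difference of -1.26 ± 0.49 (adjusted p = 0.0473) was no longer called without induced replicate 3 (-0.76 ± 0.45, adjusted p = 0.175), without induced replicate 1 (-1.46, adjusted p = 0.0506) or without uninduced replicate 1 (-0.69, adjusted p = 0.185).

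Germline and oocyte-type genes expressed in ES cells fell in 14 of 24 (32 on the array) and rose in 2 (median -1.09). Morc1, a germline silencing factor, was at 2739.6, 2360.4 and 2224 in uninduced cells and 71.9, 136 and 106 at 48 h (-4.38 ± 0.20). The maternal complex genes Khdc3 (-4.32 ± 0.18) and Ooep (-4.25 ± 0.27) and the germ cell gene Dppa3 (-3.18 ± 0.53) fell with it. Ddx4, the germ cell helicase gene, was at 173, 185 and 275 in uninduced cells and 446, 509 and 503 at 48 h and rose (1.17 ± 0.19). In the Lin28 and let-7 list 8 of 13 rose and 1 fell. Lin28a, which blocks let-7 processing, was at 1622, 1613 and 1561 in uninduced cells and 3074, 2438 and 2459.7 at 48 h (0.72 ± 0.13). Its paralog Lin28b was at 1.47, 3.17 and 8.50 in uninduced cells and 49.0, 45.0 and 31.2 at 48 h (1.50 ± 0.25). The let-7 targets Igf2bp3 (1.41 ± 0.17) and Hmga2 (1.29 ± 0.29) rose, and Trim71 was not called (-0.20 ± 0.21).

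Several targets of LIF and STAT3 fell with LIF still in the medium. In the LIF and STAT3 list 7 of 13 (14 on the array) fell and 2 rose (median -0.76). Socs3, the feedback inhibitor that STAT3 induces, was at 1557, 1612 and 1511 in uninduced cells and 91.0, 113 and 134 at 48 h, and fell by 3.63 ± 0.16. Bcl3 (-3.11 ± 0.36), Pim3 (-2.21 ± 0.17), Socs2 (-1.76 ± 0.16) and Stat3 itself (-0.76 ± 0.16) fell. Lifr, the LIF receptor gene, was at 558, 533 and 572 in uninduced cells and 583, 703 and 561 at 48 h and was not called (0.14 ± 0.14, adjusted p = 0.425). Jak2, the kinase gene, rose by 1.72 ± 0.24.

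FGF genes moved about as often as genes in general, with 10 of 27 (33 on the array) higher and 8 lower (37.0% and 29.6% against 32.2% and 24.5% over all tested genes). Fgf4, the autocrine ligand of ES cells, was at 1276, 1146 and 859.7 in uninduced cells and 41.3, 89.0 and 20.0 at 48 h (-4.19 ± 0.33). The ERK-responsive factor gene Etv5 was at 2012, 1445 and 1246 in uninduced cells and 109, 214 and 132 at 48 h (-3.26 ± 0.24). The feedback inhibitor gene Spry4 was at 512, 429.9 and 490.3 in uninduced cells and 60.2, 77.0 and 22.8 at 48 h (-2.92 ± 0.29), and Etv4 fell by 3.44 ± 0.30. No groups overlapped in these genes. Dusp4, a phosphatase gene that ERK signalling also induces, was at 41.8, 70.4 and 36.9 in uninduced cells and 1629, 1428 and 1439.7 at 48 h, a rise of 4.56 ± 0.20. Dusp5 (2.85 ± 0.35), Fgfbp3 (2.78 ± 0.26), Flrt3 (2.48 ± 0.24) and the decoy receptor gene Fgfrl1 (1.75 ± 0.20) rose, and Dusp6 was not called (-0.42 ± 0.33, adjusted p = 0.298) except with arrays paired by number (-0.42, adjusted p = 0.0249) or without induced replicate 3 (-0.79, adjusted p = 0.0358). With median centring 7 rose and 8 fell.

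In the Nodal, activin and Lefty list 9 of 25 (30 on the array) rose and 11 fell (36.0% and 44.0% against 32.2% and 24.5% over all tested genes). The activin subunit gene Inhbb was at 242, 486 and 501 in uninduced cells and 13.8, 10.3 and 8.16 at 48 h (-3.93 ± 0.28). The inhibitor gene Smad7 (-2.40 ± 0.24) fell beside Nodal, Lefty2 and Tdgf1. Tgfbr1, a type I receptor gene, was at 242, 379.8 and 235 in uninduced cells and 2614, 3150.4 and 2736 at 48 h, a rise of 3.27 ± 0.18, and Acvr2a (1.57 ± 0.19), Acvr2b (1.53 ± 0.26), Tgfb2 (2.10 ± 0.30) and Smad3 (1.45 ± 0.16) rose. Without uninduced replicate 2 the count was 11 higher and 9 lower, so which direction is larger is not settled. BMP signalling genes rose in 6 of 11 (22 on the array) and fell in 3. These counts are 54.55% and 27.27%, against 32.2% and 24.5% over all tested genes. The receptor genes Bmpr2 (1.47 ± 0.16) and Bmpr1a (1.06 ± 0.19), the transducer genes Smad1 (1.47 ± 0.24) and Smad5 (1.27 ± 0.18) and the secreted regulator gene Bmper (2.02 ± 0.27) rose. Bmp4 was at 608, 676 and 631 in uninduced cells and 226, 235 and 582 at 48 h, with induced replicate 3 close to the uninduced arrays (-0.98 ± 0.29, adjusted p = 0.0150). That call was lost without induced replicate 1 (-0.75, adjusted p = 0.0638) and without induced replicate 2 (-0.78, adjusted p = 0.0570). Smad6, which BMP signals induce, fell by 1.17 ± 0.29.

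Of 35 genes of the Wnt pathway (57 on the array) 26 rose and 4 fell (median 1.11). The receptor gene Fzd3, needed for axon tracts, was at 43.6, 72.1 and 58.9 in uninduced cells and 967, 983 and 867 at 48 h (3.70 ± 0.18). Fzd5 was at 561, 722 and 852 in uninduced cells and 63.6, 106 and 94.4 at 48 h and fell (-2.81 ± 0.21), so receptors moved in opposite directions. Fzd2 (3.03 ± 0.24), Fzd1 (2.03 ± 0.27), the secreted inhibitor gene Frzb (3.25 ± 0.29), the Wnt secretion gene Wls (3.22 ± 0.39) and Sp8 (3.26 ± 0.23) rose. Tcf7l1, a repressor of pluripotency genes, fell (-0.91 ± 0.19). Hedgehog genes rose in 8 of 13 (15 on the array) and fell in 1. The co-receptor gene Gas1 was at 4.41, 44.6 and 53.1 in uninduced cells and 868, 678 and 754 at 48 h, a rise of 4.14 ± 0.38. The co-receptor genes Cdon (2.25 ± 0.22) and Boc (1.75 ± 0.22), the transducer gene Smo (1.53 ± 0.25) and Gli3 (1.70 ± 0.22) rose. The pathway target gene Gli1 was at 139, 117 and 94.8 in uninduced cells and 4.56, 19.06 and 14.7 at 48 h and fell (-2.23 ± 0.26), while the ligand gene Shh was not called (-0.39 ± 0.24). Ptch1, another target, was not called either (0.46 ± 0.31, adjusted p = 0.226), except with arrays paired by number (0.46, adjusted p = 0.0184) or without uninduced replicate 2 (0.81, adjusted p = 0.0322). Of 18 insulin and IGF pathway genes (20 on the array) 14 rose and 1 fell. Igfbpl1, a gene of newborn neurons, was at 3.88, 14.7 and 5.30 in uninduced cells and 578, 404 and 645 at 48 h (4.54 ± 0.25). The binding protein gene Igfbp4 was at 34.6, 58.3 and 44.9 in uninduced cells and 1233, 1239.7 and 994 at 48 h (4.25 ± 0.19). Irs1 (2.59 ± 0.45), Pik3r1 (2.50 ± 0.20), Pik3r3 (2.81 ± 0.24), Igf1r (1.62 ± 0.21) and Insr (1.40 ± 0.22) rose, and Igfbp2 fell (-1.14 ± 0.19).

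In the retinoic acid and Hox lists 1 culture stood apart. Of 13 tested retinoic acid genes (19 on the array) 7 rose and 2 fell, and of 8 tested Hox genes (33 on the array) 7 rose and the other one was not called. Crabp1, a cytoplasmic retinoic acid binding protein, was at 97.7, 164 and 114 in uninduced cells and 6963, 4214 and 7880.3 at 48 h, a rise of 5.47 ± 0.24. Crabp2 was at 97.0, 107 and 129 in uninduced cells and 1537, 628 and 2409.7 at 48 h (3.41 ± 0.38), and induced replicate 3 was the highest array for both. The receptor genes Rarg (-2.10 ± 0.20) and Rara (-1.25 ± 0.28) fell. Rarb, a receptor gene that retinoic acid itself induces, was at 15.0, 6.86 and 10.9 in uninduced cells and 82.3, 69.4 and 826 at 48 h. Induced replicate 3 was far above its companions, and the rise of 2.84 ± 0.69 (adjusted p = 0.00470) became 1.78 ± 0.26 (adjusted p = 0.000386) without it. Hoxb4 was at 1.64, 6.79 and 1.36 in uninduced cells and 71.2, 72.3 and 395 at 48 h (2.94 ± 0.50, or 2.20 ± 0.27 without that array). Hoxb2 was at 5.29, 2.15 and 4.10 in uninduced cells and 302, 271 and 728 at 48 h (4.37 ± 0.33, or 3.93 ± 0.24). Hoxb1 (2.60 ± 0.34), Hoxa3 (2.02 ± 0.36), Hoxb3 (1.91 ± 0.40), Hoxa2 (1.84 ± 0.26) and Hoxd8 (1.50 ± 0.27) rose, and Hoxa5 was not called (0.08 ± 0.33).

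The same array was the outlying one for genes beyond these lists. On induced replicate 3, 53 genes were at least 2-fold above both other 48 h arrays and 78 at least 2-fold below both, against 11 and 20 genes for replicate 1 and 9 and 11 for replicate 2. Stra8, a retinoic acid target of germ cells, was at 42.1, 79.7 and 194 in uninduced cells and 43.2, 61.6 and 1752 at 48 h. Its difference of 0.93 ± 1.03 (adjusted p = 0.463) was not called, and without induced replicate 3 it was -0.64 ± 0.45 (adjusted p = 0.257). Cyp26a1, the retinoic acid-degrading enzyme gene, was at 38.3, 7.47 and 2.76 in uninduced cells and 18.3, 36.1 and 209 at 48 h and was too dim to be tested. Olig2, a motor neuron and oligodendrocyte factor, was at 5.70, 8.82 and 1.90 in uninduced cells and 335, 233 and 33.2 at 48 h, low on the same array, and its rise of 2.93 ± 0.58 became 3.80 ± 0.27 without it. The BMP and activin antagonist gene Fst was at 39.5, 53.9 and 40.3 in uninduced cells and 512, 273 and 52.9 at 48 h, where induced replicate 3 lay within the uninduced range. Its rise of 1.86 ± 0.57 was 2.70 ± 0.28 without that array and was not called without induced replicate 1 (1.23, adjusted p = 0.0599). The progenitor gene Fabp7 was at 0.552, 0.854 and 0.956 in uninduced cells and 861, 689 and 156 at 48 h (4.82 ± 0.49). Csn3 (50.2, 61.7 and 431 at 48 h), Sfrp5 (128, 67.2 and 581), Tgm2 (98.96, 147 and 637) and Myl7 (23.4, 23.3 and 293) were high on replicate 3, and Acta2 (115, 449 and 46.9) was high on replicate 2. At the other induced times the arrays numbered 3 stood out in the same direction for some of these genes and not for others. Stra8 was at 519, 391 and 3531 at 24 h and 40.7, 22.0 and 365 at 72 h. Rarb was at 164, 141 and 492 at 24 h and 104, 88.0 and 1391 at 72 h. Olig2 was at 14.5, 29.4 and 6.50 at 24 h and 318, 359.5 and 19.5 at 72 h. The direction differed at 24 h for Crabp1 (527, 366 and 325) and Crabp2 (1022, 621 and 487), which were lowest on replicate 3 there, and for Fabp7 (33.9, 252 and 97.2), which was lowest on replicate 1. Without the arrays numbered 3 in both groups 5735 genes were called, 3345 higher and 2390 lower. What set these cultures apart was not tested.

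**Figure D4:**
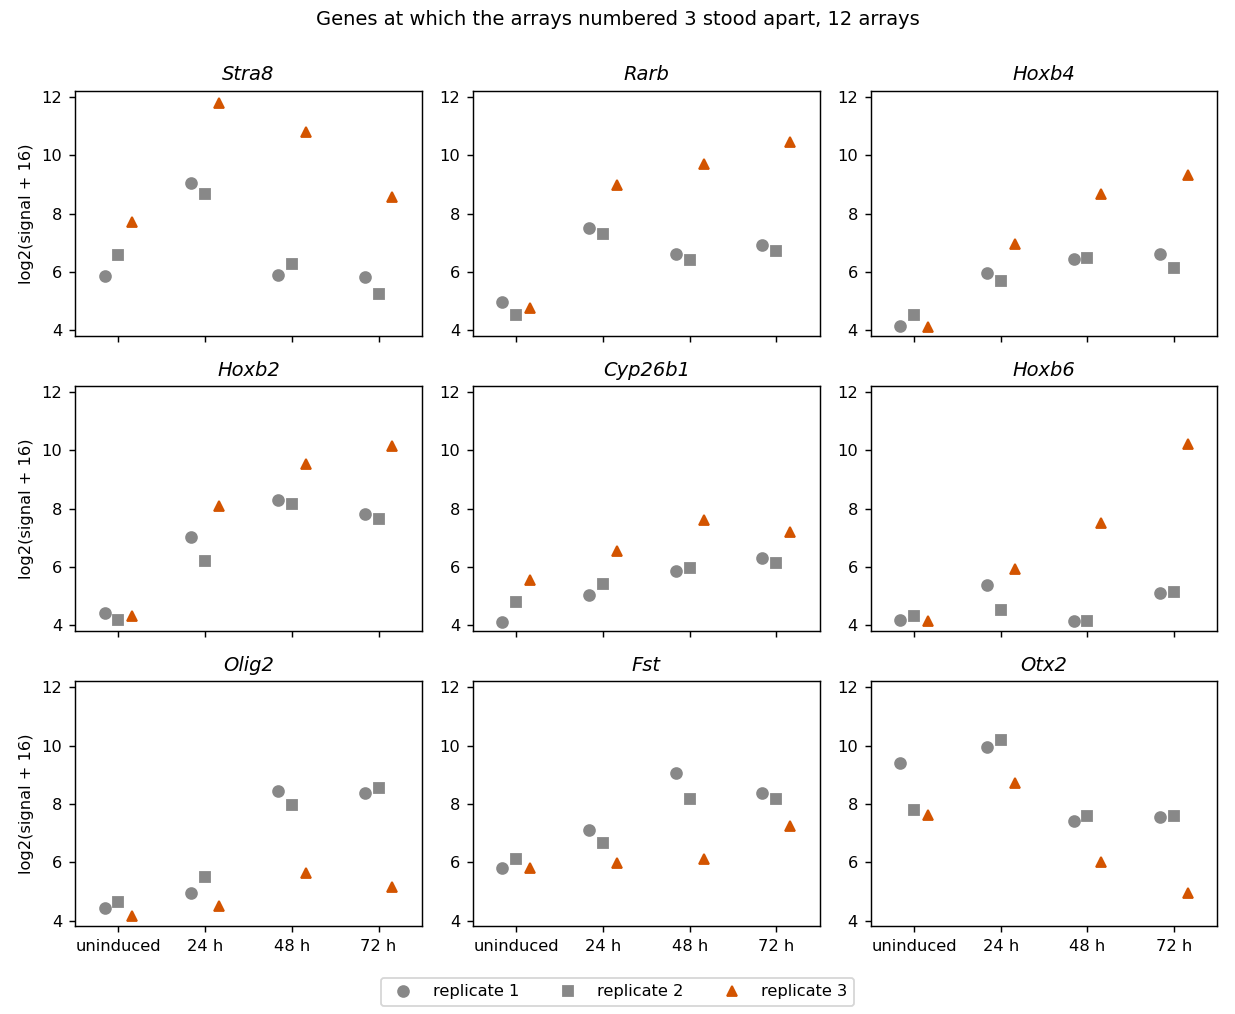
Log2(signal + 16) (y axis) on the 12 arrays (x axis, 3 replicates in each of 4 groups) for Stra8, Rarb, Hoxb4, Hoxb2, Cyp26b1, Hoxb6, Olig2, Fst and Otx2, with replicate 3 marked, genes chosen after their values were seen. At 48 h replicate 3 is the highest array for Stra8 (43.2, 61.6 and 1752) and Rarb (82.3, 69.4 and 826) and the lowest for Olig2 (335, 233 and 33.2) and Fst (512, 273 and 52.9).

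Most proliferation genes fell in the main fit. S phase genes fell in 41 of 53, by 1 or more in 17, and rose in 1 (median -0.83). G2 and mitosis genes fell in 54 of 62, by 1 or more in 21, and rose in 2 (median -0.85). Over all tested genes 9.32% fell by 1 or more. Ccne1, the cyclin that drives entry into S phase, was at 1690.2, 1737 and 1513 in uninduced cells and 274, 346 and 346 at 48 h (-2.30 ± 0.15). Pcna, the replication clamp, was at 8289, 7817 and 11039 in uninduced cells and 4943, 4942 and 5073 at 48 h, still bright at 48 h (-0.84 ± 0.14), and Mcm2 fell by 0.89 ± 0.16. The mitotic kinase gene Cdk1 was at 2635, 2345 and 2297 in uninduced cells and 1099.8, 1070.3 and 1408 at 48 h (-1.02 ± 0.14), and Birc5 (-1.50 ± 0.15), Bub1b (-1.59 ± 0.16), Cdca5 (-1.36 ± 0.13), Kif20b (-1.42 ± 0.13) and Aurkb (-0.92 ± 0.19) fell. The groups did not overlap in these genes. The S phase member that rose was E2f1 (0.68 ± 0.19), which was no longer called after quantile normalization (0.46, adjusted p = 0.0697) and without induced replicate 1 (0.52, adjusted p = 0.0617). CDK inhibitors and cell cycle exit genes rose in 19 of 29 (30 on the array) and fell in 4. Cdkn1c (p57) was at 140.1, 500.5 and 339 in uninduced cells and 2171, 2195 and 2671 at 48 h (2.94 ± 0.34). The retinoblastoma gene Rb1 was at 153, 297 and 292 in uninduced cells and 1163, 1353 and 1197 at 48 h (2.30 ± 0.22). Ccng2 (2.70 ± 0.18), the antiproliferative gene Btg2 (1.93 ± 0.32), Cdk5r1, the activator of a neuronal kinase (1.91 ± 0.25), Cdkn1b, p27 (1.27 ± 0.27), Cdkn1a, p21 (1.03 ± 0.26), and also the G1 cyclin gene Ccnd1 (1.14 ± 0.14) rose. Ccnd3 fell (-1.79 ± 0.18).

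Myc family members moved in opposite directions. Myc was at 408, 482 and 536 in uninduced cells and 120.5, 108 and 86.1 at 48 h (-2.02 ± 0.18). Mycn was at 2083, 2081 and 1408 in uninduced cells and 753, 662 and 539 at 48 h (-1.48 ± 0.18). Mycl was at 19.6, 51.1 and 5.52 in uninduced cells and 896, 761 and 620.5 at 48 h, a rise of 4.37 ± 0.35, and the antagonist genes Mxd4 (3.06 ± 0.28) and Mxd1 (1.96 ± 0.31) rose. Of 13 tested members 3 rose and 5 fell (23.1% and 38.5% against 32.2% and 24.5% over all tested genes), and with quantile normalization 3 fell. Ribosome biogenesis genes, which Myc activates, fell in 43 of 46, the others not being called (median -1.12). Ncl, nucleolin, was at 11086, 9552 and 12538 in uninduced cells and 5745, 5481 and 6558 at 48 h (-0.89 ± 0.13). Fbl, fibrillarin, was at 4195, 3703 and 4190.1 in uninduced cells and 1891, 2009 and 1534 at 48 h (-1.15 ± 0.13). The groups did not overlap in either, and Nop10 (-1.47 ± 0.12), Nop56 (-1.20 ± 0.12) and Tcof1 (-1.72 ± 0.21) fell. Cytoplasmic ribosomal proteins fell in 37 of 45 (46 on the array), with a median of -0.48. Rpl19 was at 11518, 10121 and 13103 in uninduced cells and 7102, 6933 and 7364 at 48 h (-0.69 ± 0.12), with no overlap. Rps6 was at 351, 362 and 326 in uninduced cells and 327, 340.3 and 368 at 48 h and was not called (-0.01 ± 0.15). The ribosomal protein count depends on scaling, since with quantile normalization 2 fell and 1 rose (median -0.03), whereas 41 of the ribosome biogenesis genes still fell.

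Respiratory chain genes fell in 43 of 69 (71 on the array), the others not being called (median -0.40), a count that dropped to 17 with quantile normalization. Atp5g1 (-1.43 ± 0.17), Atp5l (-1.30 ± 0.15) and Uqcrq (-1.16 ± 0.16) fell most, and Ndufa2 was not called (-0.10 ± 0.13). Glycolysis and hypoxia factor genes fell in 15 of 32 (33 on the array) and rose in 8. These counts are 46.88% and 25%, against 24.5% lower and 32.2% higher over all tested genes. Hk2, a hexokinase gene, was at 2459, 2130.0 and 1976 in uninduced cells and 351, 436 and 423 at 48 h (-2.39 ± 0.14). The phosphofructokinase gene Pfkp was at 2064, 1534 and 1079 in uninduced cells and 139, 213 and 144 at 48 h (-3.09 ± 0.24). The muscle-type phosphofructokinase gene Pfkm rose instead (0.86 ± 0.17), with Egln1 (1.05 ± 0.24) and Vegfa (0.90 ± 0.21). Epas1 (HIF2A) was at 568, 473 and 643 in uninduced cells and 108, 96.0 and 107 at 48 h (-2.26 ± 0.17), and Pdk1 (-1.52 ± 0.17) and Ldha (-0.76 ± 0.13) fell. Cholesterol synthesis genes rose in 18 of 32 and fell in 1 (median 0.73). Tm7sf2 was at 53.3, 73.1 and 51.6 in uninduced cells and 392, 494 and 401 at 48 h (2.57 ± 0.19), and Hsd17b7 (2.21 ± 0.19), Cyp51 (1.36 ± 0.20), Hmgcs1 (1.19 ± 0.15), Sqle (0.80 ± 0.18) and the desaturase genes Fads1 (1.58 ± 0.22), Fads2 (1.52 ± 0.24) and Scd2 (1.56 ± 0.20) rose, against a fall of Ebp (-1.02 ± 0.20).

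Genes of the ATF4 response, which adapts cells to amino acid shortage and other stress, were mostly lower. They fell in 23 of 36 (39 on the array) and rose in 4 (median -0.91). Atf4 was at 2224, 2242 and 2188 in uninduced cells and 855, 1227 and 1168 at 48 h (-1.04 ± 0.15). The amino acid transporter gene Slc7a3 was at 4242, 1887 and 1842 in uninduced cells and 154, 334 and 199 at 48 h (-3.40 ± 0.33), and Cth (-2.39 ± 0.20), Nupr1 (-1.96 ± 0.32), Shmt2 (-1.78 ± 0.23) and Trib3 (-1.47 ± 0.22) fell. Ddit3 was at 119.6, 165 and 208 in uninduced cells and 137, 166 and 202 at 48 h and was not called (0.05 ± 0.23, adjusted p = 0.873). Vldlr (2.60 ± 0.25) and Ddit4 (1.27 ± 0.14) rose. Of 25 genes (31 on the array) of the heat shock and immediate early responses, read here for handling of the cells, 13 fell and 3 rose. Fos was at 44.9, 61.5 and 48.3 in uninduced cells and 35.1, 31.4 and 48.5 at 48 h and was not called (-0.32 ± 0.22). Hspb1 was at 8097, 7355 and 9446 in uninduced cells and 252, 606 and 597 at 48 h (-4.14 ± 0.28), Nr4a1 fell by 2.86 ± 0.18, Egr1 fell by 0.91 ± 0.23, and Jun rose by 2.45 ± 0.27. Targets of p53 and apoptosis genes rose in 12 of 28 (29 on the array) and fell in 1 (42.9% and 3.57% against 32.2% and 24.5% over all tested genes). With median centring 7 rose and 3 fell. Bcl2 (1.57 ± 0.34), Bmf (1.31 ± 0.19), Casp9 (1.31 ± 0.26) and Dapk1 (1.22 ± 0.20) rose, Mcl1 fell (-0.60 ± 0.12, but -0.25, adjusted p = 0.0649 with quantile normalization), and Mdm2, at 469, 974 and 1986 in uninduced cells and 892, 743 and 1091 at 48 h, was not called (-0.11 ± 0.39).

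Most genes of DNA methylation enzymes fell. In that list 10 of 16 (17 on the array) fell and 4 rose (median -0.73). Dnmt3l, a cofactor of de novo methylation, was at 4326, 2720.3 and 3044 in uninduced cells and 176, 382 and 225 at 48 h (-3.65 ± 0.26). Tet1, which oxidises methylated cytosine, was at 2416, 2446 and 2418 in uninduced cells and 269, 435 and 253 at 48 h (-2.91 ± 0.19). Tet2 was at 422, 425 and 461 in uninduced cells and 103, 115 and 137 at 48 h (-1.75 ± 0.17). The groups were clearly apart in all 3. Dnmt1 fell by 0.69 ± 0.14. Dnmt3a fell by 0.70 ± 0.22 on its brightest probe set, but not without induced replicate 3 (-0.43, adjusted p = 0.0556) or with the mean of its probe sets (0.19, adjusted p = 0.370). Gadd45a (1.46 ± 0.17) and Uhrf2 (1.18 ± 0.21) rose. Polycomb subunits rose in 9 of 29 and fell in 11 (31.03% and 37.93% against 32.2% and 24.5% over all tested genes). The share that rose was no larger than over all tested genes, and a difference between Polycomb complexes was not tested. Bmi1 was at 141, 209 and 163 in uninduced cells and 1058, 1031 and 1089.9 at 48 h (2.54 ± 0.16). Phc2 was at 87.5, 206 and 96.6 in uninduced cells and 1378, 1303 and 1116 at 48 h (3.22 ± 0.26). Yaf2 (2.80 ± 0.26) and Cbx2 (1.26 ± 0.22) rose too, and all 4 belong to the Polycomb complex that ubiquitinates histone H2A. Eed was at 3649, 3888 and 4252 in uninduced cells and 1179, 1278 and 1446 at 48 h (-1.59 ± 0.13), and Suz12 (-1.10 ± 0.16), Mtf2 (-1.38 ± 0.14) and Epop (-2.04 ± 0.24) fell, all members or partners of the complex that methylates histone H3. Phc1, a relative of Phc2, fell as well (-1.43 ± 0.18). The methyltransferase gene Ezh2 was at 1415, 1515 and 1239.8 in uninduced cells and 1590.2, 1212 and 1422 at 48 h and was not called (0.01 ± 0.14, adjusted p = 0.940). The Polycomb median of 0.01 turned to -0.24 with median centring, and that of NuRD and histone variants from 0.13 to -0.13. In the latter 11 of 27 (28 on the array) rose, such as Chd7 (2.38 ± 0.28) and Hdac11 (2.00 ± 0.24), and 5 fell, such as H2az1 (-1.06 ± 0.15) and Mta3 (-1.48 ± 0.18). These counts are 40.7% and 18.5% of the tested members, against 32.2% and 24.5% over all tested genes. BAF subunits rose in 12 of 25 (28 on the array) and fell in 4 (48% and 16%). Smarca2 was at 8.10, 13.8 and 8.34 in uninduced cells and 70.9, 66.9 and 76.7 at 48 h (1.75 ± 0.22) and Smarcc2 rose by 1.41 ± 0.24. Dpf1, a subunit of neuronal BAF complexes, was at 102, 93.2 and 80.0 in uninduced cells and 15.5, 15.1 and 8.37 at 48 h and fell (-1.90 ± 0.22). Imprinted genes rose in 15 of 21 (25 on the array) and fell in 4 (median 1.27). Plagl1, a zinc-finger gene, was at 138, 231 and 103 in uninduced cells and 2055, 2470.3 and 933 at 48 h (3.36 ± 0.35), lowest of the induced arrays on replicate 3. Mest was at 705, 819 and 701 in uninduced cells and 4061, 3723 and 4359 at 48 h (2.42 ± 0.13). Sgce (3.04 ± 0.30), Ndn (2.25 ± 0.19) and Igf2 (1.62 ± 0.37) rose, and Phlda2 (-1.86 ± 0.21) and Ascl2 (-1.44 ± 0.31) fell.

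Collagen, laminin and matrix genes rose in 15 of 29 (42 on the array) and fell in 5. These counts are 51.72% and 17.24%, against 32.2% and 24.5% over all tested genes. Reln, the signal of Cajal-Retzius neurons, was at 4.02, 6.74 and 13.4 in uninduced cells and 387, 468 and 221 at 48 h (3.92 ± 0.28). Col4a2 (1.95 ± 0.21), Ncan (1.72 ± 0.20) and Vcan (1.61 ± 0.26) rose, and Nid2 (-1.91 ± 0.21) and Nid1 (-1.67 ± 0.15) fell. Among integrins 5 of 13 (19 on the array) rose and 3 fell (38.5% and 23.1%, close to the shares over all tested genes), but 4 rose and 5 fell with quantile normalization, and the median turned from 0.13 to -0.13. Itgb8 rose (2.14 ± 0.34), and Itgb7 (-2.16 ± 0.26) and Itga6 (-0.79 ± 0.18) fell.

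Markers of other lineages were checked beside the neuronal genes. Over all tested genes 32.2% were called higher and 24.5% lower, and the counts below stand beside those shares. In the definitive and visceral endoderm list 9 of 12 tested members (22 on the array) rose, or 75%, and the others were not called. Not all of the 9 are named here. The summed signal of this list over 22 genes was 721 to 1133 on uninduced arrays and 1789 to 2833 at 48 h. Foxa2, shared with the floor plate, was at 3.81, 3.03 and 9.32 in uninduced cells and 155, 112 and 94.4 at 48 h (2.66 ± 0.25). Cxcr4, shared with neurons, was at 2.54, 9.88 and 12.7 in uninduced cells and 354, 182 and 268 at 48 h (3.52 ± 0.27). Sox17 was at 11.4, 9.46 and 13.97 in uninduced cells and 42.2, 31.5 and 119 at 48 h (1.38 ± 0.35), highest on induced replicate 3, and was not called with all 12 arrays (1.38, adjusted p = 0.0800) or without induced 24 h replicate 1 (1.38, adjusted p = 0.0526). Afp, of visceral endoderm, was at 13.4, 2.30 and 7.81 in uninduced cells and 1.31, 8.13 and 9.54 at 48 h, and Gata4 did not exceed 22.6 on any of the 6 arrays, both too dim to be tested. Of 14 neural crest genes (20 on the array) 9 rose and 4 fell, with sums of 1282 to 1966 and 7095 to 10979. Most of the 48 h sum came from 1 member, Crabp1, which was at 6963, 4214 and 7880.3 at 48 h. The sum therefore does not describe the other members. Pax3 was at 1.28, 4.06 and 0.342 in uninduced cells and 306, 343 and 508 at 48 h (4.46 ± 0.24), while Foxd3, Erbb3 (-1.92 ± 0.22) and Mitf (-1.83 ± 0.21) fell. Of 8 fibroblast and feeder genes (16 on the array) 4 rose and 1 fell (50% and 12.5%), with sums of 401 to 1479.7 and 592 to 1264. Col1a2 was at 20.6, 44.5 and 16.8 in uninduced cells and 80.8, 113 and 63.3 at 48 h (1.26 ± 0.29). Thy1 was at 54.2, 63.1 and 55.3 in uninduced cells and 21.9, 12.3 and 10.0 at 48 h (-1.28 ± 0.23), and Col1a1 and Dcn stayed at or below 24.6 on all 6 arrays. Mesoderm genes rose in 2 of 4 tested (23 on the array) and fell in 1, with Isl1 and Foxc1 (1.90 ± 0.23) higher and Tcf15 lower (-2.07 ± 0.23), Eomes not called (-0.05 ± 0.27), and Mixl1, Tbx6 and Meox1 at or below 29.9 on all 6 arrays. Muscle genes rose in 2 of 10 (23 on the array) and fell in 4 (20% and 40%). Tnnc1 was at 33.1, 14.7 and 30.7 in uninduced cells and 165, 215 and 199.6 at 48 h (2.33 ± 0.24), and Myod1 and Myog were at or below 18.6. Trophoblast genes fell in 3 of 8 (14 on the array), which is 37.5% against 24.5% over all tested genes, and the others were not called. Surface ectoderm genes fell in 4 of 7 (13 on the array) and rose in 1, and endothelial and blood genes fell in 6 of 8 (23 on the array) and rose in 2. The count of lower endothelial and blood genes was 3 without uninduced replicate 3 or without induced replicate 2. Pecam1, which ES cells also express, was at 148, 122 and 172 in uninduced cells and 2.79, 17.1 and 23.2 at 48 h (-2.48 ± 0.29), while Ptprc and Aif1 of blood cells were at or below 11.1 on all 6 arrays. The part of other cell types in the neuronal results was not tested.

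The 48 h arrays fall between 24 h and 72 h, and all induced groups share the same uninduced arrays. Tested directly in a fit of all 12 arrays, 1213 genes were higher at 48 h than at 24 h (10.3% of 11806) and 891 lower (7.55%). Only 76 were higher at 72 h than at 48 h (0.644%) and 18 lower (0.152%) in that fit. Leaving out induced 24 h replicate 1 gave 3007 and 485 genes for these comparisons. Neuronal groups gained between 24 h and 48 h, with 19 of 36 tubulin and growth cone genes higher and 1 lower, 22 of 50 guidance genes higher and 2 lower, and 15 of 23 adhesion genes higher. Dcx was at 17.2, 65.1 and 27.5 at 24 h (4.22 ± 0.31 for 48 h against 24 h, adjusted p = 2e-05) and Isl1 at 44.4, 122 and 82.8 (3.56 ± 0.31). Naive pluripotency genes were lower at 48 h than at 24 h in 18 of 42. Pou5f1 was at 6676, 3919 and 3295 at 24 h, so 1 array was above the uninduced values and the other two below them, and the difference between 48 h and 24 h was -4.09 ± 0.45. Mitotic genes were lower at 48 h than at 24 h in 23 of 62 and ATF4 response genes in 25 of 37.

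The 72 h and 48 h arrays were compared in the same fit. Called higher at 72 h were 4 of 36 tubulin and growth cone genes, 5 of 33 synaptic vesicle genes, 2 of 7 intermediate filament genes and 2 of 23 adhesion genes. None was called in limma among 50 guidance, 20 postsynaptic, 19 receptor subunit, 19 cadherin and 13 neurotrophin and GDNF family genes, where 9, 2, 4, 6 and 3 were higher at an unadjusted p under 0.05. Over all genes in that fit, 577 of 11806 were higher at the same unadjusted threshold. Mapt, below its uninduced level at 48 h, was at 317, 353 and 203 at 72 h, a rise of 2.57 ± 0.29 from 48 h (adjusted p = 0.00179). Nefm was at 2762, 2612 and 3231 (2.73 ± 0.43), Nefl at 5649.9, 5975 and 8139 (2.52 ± 0.29), L1cam at 696, 677 and 709 (2.55 ± 0.25) and Snap25 at 1440.1, 1475 and 1484 (1.62 ± 0.32). Gal, which encodes galanin, was at 179, 192 and 281 at 72 h and was the only member of the granin list called between 48 h and 72 h in this fit (-2.14 ± 0.38, adjusted p = 0.0215). Tnnc1 was at 72.9, 81.7 and 64.3 (-1.23 ± 0.24). Some genes crossed their uninduced level between 24 h and 48 h. Nefl was at 101, 65.1 and 88.3 at 24 h, below its uninduced values, before its rise at 48 h. Epas1 at 1816, 1358 and 1180.5 and Tfap2c at 1045, 814 and 663 were above their uninduced values at 24 h and below them at 48 h.

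**Figure D5:**
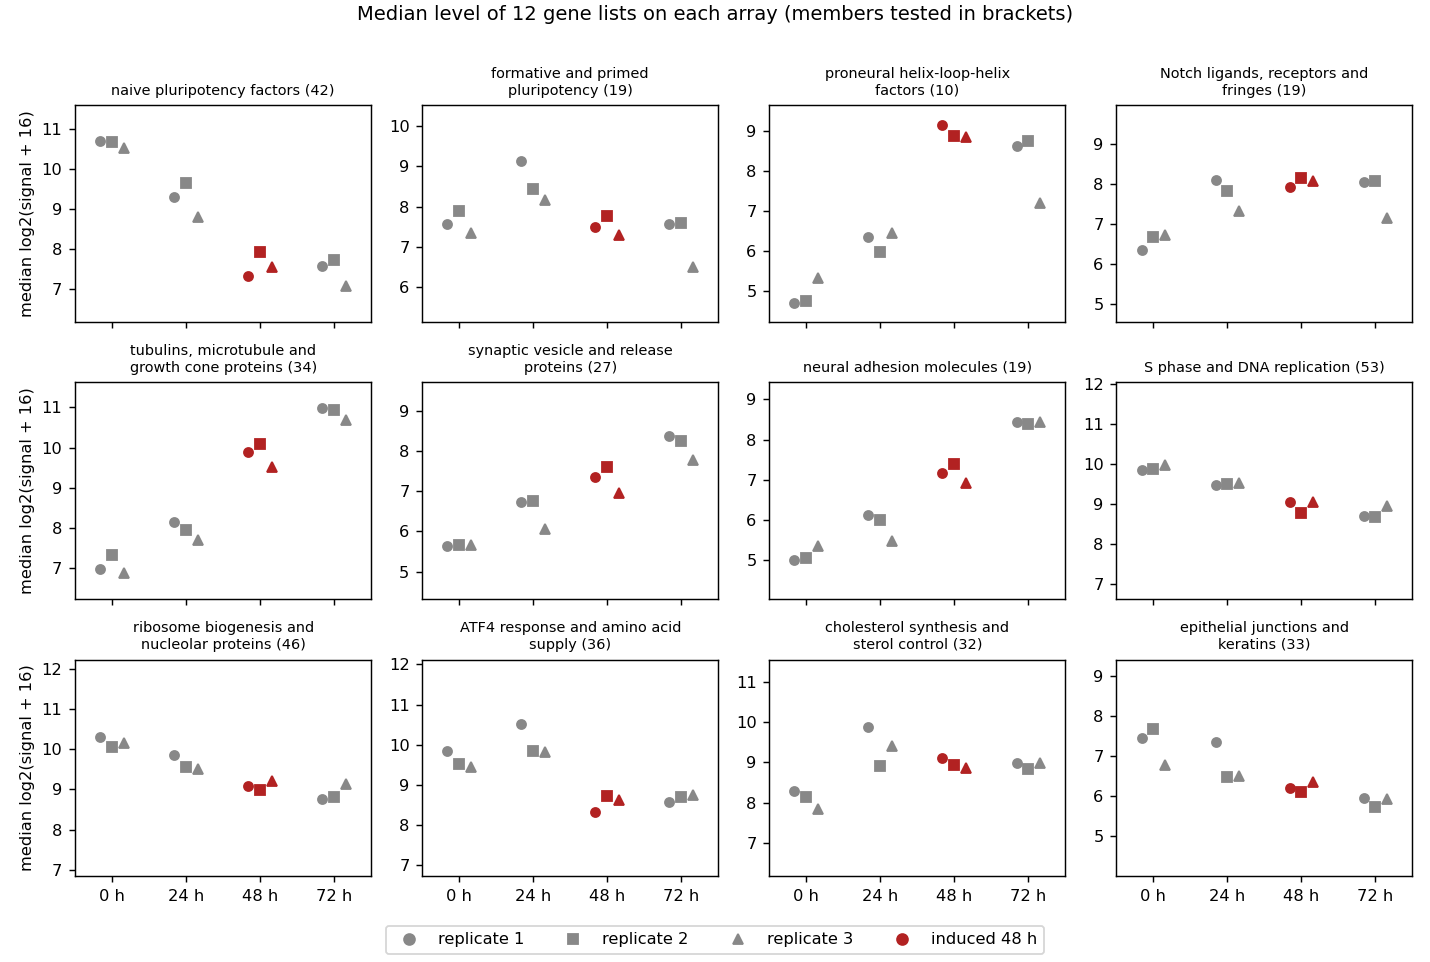
Median log2(signal + 16) of the tested members (y axis) of 12 gene lists on each of the 12 arrays (x axis, grouped by time). The naive pluripotency median is 10.69, 10.67 and 10.51 on uninduced arrays and 7.34, 7.93 and 7.56 at 48 h, and the tubulin and growth cone median goes from 6.98, 7.33 and 6.87 to 9.89, 10.10 and 9.52.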

How the data were processed

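Signals of 45101 probe sets on 12 arrays were read from the authors' deposited table of processed values. They are MAS5 intensities on a linear scale, per the labels and the submitters' processing notes, and the sources used here do not give the MAS5 version. Control probe sets (64) and probe sets without exactly 1 gene symbol were left out, and each of 18193 genes was taken from the probe set with the highest mean over the 12 arrays. A gene was tested if its log2(signal + 16) was above the array's median on all 3 arrays of either group (11317 genes). The 6 arrays were fitted alone in limma 3.58.1 (R 4.3.3) with an intensity trend, with Benjamini-Hochberg adjustment over all genes tested. Comparisons with 24 h and 72 h came from a fit of all 12 arrays (11806 genes).

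The text names Neurog1, the 30 largest rises and falls, members of 67 gene lists chosen by size and list order, the 10 genes with the largest spread at 48 h, and genes called in opposite directions at 24 h and 48 h. The comparison, lists and genes were chosen with earlier results of these data known. Dim markers that were not tested, and Cyp26a1, Cyp26b1 and Hoxb6, were named after their values were seen. Arrays that share a replicate number deviated together (r = 0.15, 0.22 and 0.19 for replicates 1, 2 and 3 over the genes tested). An alternative fit therefore paired the arrays by these numbers, which come from the labels. The main fits did not pair them, so the SEs and p-values given are unpaired unless pairing is named. Quantile normalization, median centring, other pseudocounts and filters, averaged probe sets, array weights and leaving out each array were tried as alternatives. The scripts were tested on simulated data. Promoters were taken from RefSeq's table for GRCm38.p6.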

Additional observations from a re-analysis of the deposited data

Results flagged for a closer look

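A set of 24 genes was called in opposite directions against the uninduced arrays at 24 h (fit of all 12 arrays) and at 48 h (fit of the 6 arrays). The difference between both times was called for each of them in limma. Choosing genes by opposite calls against the same arrays makes such a call all but certain, so it adds no support. In the fit of all 12 arrays the 48 h difference was called for 14 of the 24 and not for 10, with adjusted p up to 0.181. Those 10 were Cdh3, Dnmt3a, Fbp1, Fgf18, Hacd2, Id3, Mmp11, Ms4a10, Plaat3 and Plcg2. Of the 24 genes, 20 were high at 24 h and low at 48 h. Epas1, the hypoxia factor gene, differed by -3.59 on the log2 scale between 48 h and 24 h, Ms4a10 by -3.43, the stress gene Nupr1 by -3.25, the gluconeogenic gene Fbp1 by -3.14, the P-cadherin gene Cdh3 by -3.09 and Tfap2c by -3.00. Cenpm, a centromere protein gene, differed by -2.87, the phospholipase gene Plaat3 by -2.72, Plcg2 by -2.47, Ceacam1 by -2.37, S1pr2 by -2.25, and Adgre5 and the methyltransferase gene Dnmt3a by -2.20 each. Smaller differences were -1.81 for Capns1, -1.79 for Derl3, -1.74 for Pla2g5, -1.64 for the matrix protease gene Mmp11, -1.58 for Etl4, -1.58 for Pkp4 and -1.56 for Hacd2. The other 4 were low at 24 h and high at 48 h, with Id3 at 4.06, Nefl at 3.51, Gna14 at 2.07 and the ligand gene Fgf18 at 1.82. Without induced 24 h replicate 1, an alternative chosen after the data were seen, 23 of the 24 were again called in opposite directions, and over all genes 41 were. The exception was Id3, whose 48 h difference then had an adjusted p of 0.0928. Some of the 48 h calls were small, and those of Cdh3, Derl3, Dnmt3a, Fbp1, Fgf18, Hacd2, Id3, Mmp11, Ms4a10, Pla2g5, Plaat3 and Plcg2 were lost when some single array was left out, with adjusted p up to 0.132 (Fbp1, without uninduced replicate 3).

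Probe sets without exactly 1 gene symbol were outside the comparison of genes. In a fit of all probe sets 1041 of 2144 such probe sets were called (48.6%), 527 higher and 514 lower, beside 52.1% of all probe sets tested.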

How the results depend on the processing

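With the main settings 6411 genes were called. The alternatives run for that count gave 5459 to 6870, except 4237 with all 12 arrays (2588 higher, 1649 lower) and 4454 with the filter at percentile 75, which tested only 7056 genes. Leaving out 1 array gave 5459 to 6046 genes, and 3060 to 3356 with a difference of 1 or more against 3181 with the main settings. That larger-difference count was 1936 with a pseudocount of 64 and 1954 with the filter at percentile 75. The replicate block, which pairs arrays by number, gave 6870 genes (3885 higher, 2985 lower). For 72 h against 48 h the count of 94 became 19 with a pseudocount of 1, 239 with 64 and 485 without induced 24 h replicate 1. With all 12 arrays the lower members were 27 in the mitosis list, 15 in the respiratory chain, 9 in glycolysis, 6 in Polycomb and 3 in endothelium and blood, and the higher members 6 among p53 targets, 7 in BAF and 3 in BMP signalling. Of 432 called genes named in the text, 42 lost the call under at least 1 alternative, 29 of them with all 12 arrays and 18 when 1 array was left out. Beside genes whose changed calls are given with their values, Bmpr1a, Bmpr2, Csn3, Ddx4, Dsc2, Dsp, E2f1, Hes1, Itga6, Kif20b, Ldha, Lef1, Lin28a, Mtf2, Ncl, Sfrp5 and Suz12 lost the call with all 12 arrays. Rpl19 and Gna14 lost it with quantile normalization, and Gna14 also without the arrays numbered 3 of both groups. Etl4 and S1pr2 lost it when probe sets were averaged, and Cyp26b1 without uninduced replicate 1. Fos, Shh, Rbpj, Chga, Krt8, Nes, Six4, Stmn2 and Hoxa5, not called with the main settings, were called under 1 or more alternatives. The block changed no other call among the named genes than those of Dusp6 and Ptch1. When probe sets were averaged, Dnmt3a turned from -0.70 to 0.19 and Hacd2 from -0.51 to 0.17.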

Other observations

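Genes with several probe sets gave a second reading of the comparison. Of 5122 further probe sets of called genes 4597 (89.8%) had the sign of the probe set used. The spread between arrays was of like size in both groups, with a median standard deviation over genes of 0.23 on the uninduced arrays and 0.19 at 48 h on the log2 scale.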
